A study of Homo sapiens with 6 samples.

Results

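Transcripts of 41 genes that make and run the lysosome were followed in U937 cells, a human monocytic line, in which the neutrophil serine proteases had been depleted. The genes were chosen by symbol, with earlier results of these data known. They cover cathepsins, other lysosomal hydrolases and their cofactors, membrane proteins of the lysosome, subunits of its proton pump and the transcription factors TFEB and TFE3. A row was found for 37 of the 41, among 18798 genes in the table, and all 37 were among the 14797 genes that passed the filter on low counts. CTSL, LGMN, SGSH and ATP6V0C had no row under their identifiers and were not analysed here. The ΔNSPs group held 3 libraries, each from 1 independent clone depleted of CTSG, ELANE and PRTN3 at once, and the Control group held 3 libraries, each from a separate line that carried control plasmids. All 6 were grown without further treatment in RPMI1640 with fetal bovine serum under geneticin. The labels do not say how the depletion was made, nor whether clones and lines were cultured in parallel, so every p-value measures the spread between these libraries. In bulk RNA of this kind, fewer cells of a type and less RNA per cell cannot be told apart.

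Lysosomes are acidic organelles that break down proteins, glycans, lipids and nucleic acids delivered by endocytosis, phagocytosis and autophagy. Most of their soluble enzymes are made as proenzymes in the endoplasmic reticulum, receive a mannose 6-phosphate tag in the Golgi and are carried to late endosomes by mannose 6-phosphate receptors. A V-type ATPase pumps protons into the lumen, and membrane proteins such as LAMP1 and LAMP2 line it. TFEB and TFE3 are related transcription factors that bind a short palindromic element, the CLEAR element, in the promoters of many lysosomal genes, and the kinase MTOR on the lysosomal surface holds them in the cytoplasm. Monocytes and macrophages are rich in lysosomes, and the neutrophil serine proteases are themselves stored in lysosome-related granules after activation by the lysosomal peptidase CTSC.

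The core of the CLEAR element, TCACGTGA, is of interest here because TFEB and TFE3 are among the genes followed and the promoters that hold it include genes above and below Control. RefSeq promoter windows on GRCh38.p14, from 250 bases before to 50 bases after the transcription start, were found for 29 of the 41 genes. A gene was counted once if any of its windows held the letters. TCACGTGA, a palindrome that reads alike on both strands, was found for 5 of these 29 genes (17.2%), against 321 of all 27305 genes with a window (1.18%). Its inner 6 letters, CACGTG, which every TCACGTGA contains, were found for 8 of the 29 (27.6%), against 2396 of all 27305 genes (8.77%). The 8 were ARSB, ATP6V0D1, CTSA, CTSD, GAA, LAMP1, MCOLN1 and NEU1. Because the element is known from promoters of lysosomal genes, shares above those of all genes come with the choice of genes. They are not a result of these data. The 5 genes with TCACGTGA were LAMP1, ATP6V0D1, CTSA, MCOLN1 and GAA. For the 3 of them whose printed upstream bases lie outside annotated exons, a stretch is given 5′ to 3′, with each CACGTG in capitals. It ends at the last base before the RefSeq transcription start for LAMP1 and MCOLN1. For GAA it ends at the last base before the first annotated exon, which leaves out 25 bases before the RefSeq start.

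LAMP1 (chr13:113297039-113297238, plus strand): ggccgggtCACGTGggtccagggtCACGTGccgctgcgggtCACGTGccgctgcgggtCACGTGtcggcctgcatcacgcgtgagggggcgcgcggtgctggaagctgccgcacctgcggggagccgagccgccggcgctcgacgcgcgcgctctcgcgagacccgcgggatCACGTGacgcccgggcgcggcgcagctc
GAA (chr17:80101476-80101555, plus strand): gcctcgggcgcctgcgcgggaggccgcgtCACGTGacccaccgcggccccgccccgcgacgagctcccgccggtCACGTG
MCOLN1 (chr19:7522544-7522623, plus strand): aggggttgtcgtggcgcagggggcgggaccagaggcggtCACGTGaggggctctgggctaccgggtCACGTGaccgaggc

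The LAMP1 stretch of 200 bases held 5 copies of CACGTG, with another copy starting at its last base, and the GAA and MCOLN1 stretches of 80 bases held 2 copies each. A match describes the letters of these windows and is neither a binding site nor a cause. Of the 5 genes with TCACGTGA, 4 had a log2 fold change above 0 and GAA had one below 0. The median over the 5 was 0.53, against -0.04 over the 22 other genes that had both a window and a test, of which 9 were above 0. Over the 8 genes with CACGTG the median was 0.31, with 5 above 0, against -0.07 over the 19 others. With offsets for the chromosome window of each gene, the median was 0.27 over the 5 and -0.14 over the 22 others. Without clone 2 it was 0.32 over the 5 and -0.08 over the 22 others.

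The libraries held 11476619 to 13782854 counts, so that 3 counts, the floor used here, correspond to 0.214 to 0.26 CPM, the counts of a gene relative to the library total after scaling by the TMM factors of edgeR. CTSG was at 136, 110.3 and 45.2 CPM in ΔNSPs clones 1, 2 and 3, against 1895, 2474 and 2752 CPM in Control lines 1, 2 and 3 (edgeR adjusted p = 0.0215). All clones were below all Control lines for ELANE (edgeR adjusted p = 0.145) and PRTN3 (edgeR adjusted p = 0.217), although neither passed in edgeR, and PRTN3 was at 0.855, 63.2 and 55.3 CPM in the clones, against 539, 147 and 244 CPM in the Control lines. All 11 monocytic and myeloid markers had a row and summed to 1252 to 2057 CPM in ΔNSPs and 1422 to 1607 CPM in Control. CD14, which marks mature monocytes, stayed at or below 0.34 CPM, and ITGAM, FCGR1A, CSF1R and MPO at or below 11.7 CPM. The largest part of each sum was ITGB2. It was at 414, 863 and 1041 CPM in ΔNSPs clones 1, 2 and 3, against 489, 557 and 578 CPM in the Control lines. None of the 3 T cell markers had a row. B cell markers summed to 17.2 to 25.2 CPM in ΔNSPs and 14.1 to 17.5 CPM in Control, and erythroid markers to 88.2 to 116 CPM in ΔNSPs and 76.5 to 135 CPM in Control. Epithelial markers summed to 0.303 to 0.59 CPM in ΔNSPs and 0.217 to 0.511 CPM in Control, and fibroblast markers to 0.505 to 7.72 CPM in ΔNSPs and 4.85 to 5.28 CPM in Control. The part of these markers in the results was not tested.

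Lysosomal transcripts did not move as a block. In ΔNSPs clones the lysosomal ceramidase, the sphingolipid activators PSAP and GM2A, the fucosidase FUCA1, the glucosidase GAA, cathepsin B, LAMP2 and SCARB2 lay below every Control line. LAMP1 and the pump subunit ATP6V0D1 lay above every Control line, and cathepsin S and IDS did so in clones 2 and 3 but not in clone 1. None of the 37 genes passed edgeR's quasi-likelihood test at an adjusted p under 0.05, where 3 of all 14797 genes did (0.0203%). At an unadjusted edgeR p under 0.05, 12 of the 37 (32.4%) passed, against 17.8% of all genes. The 12 were 8 lower genes (21.6%, against 8.60% of all genes) and 4 higher ones (10.8%, against 9.23%). DESeq2, an alternative test, called 6 of the 37 at an adjusted p under 0.05 (16.2%), against 3.98% of the 12944 genes to which it gave an adjusted p. All 6 were lower in ΔNSPs, where 2.07% of all genes were called, and none was higher, where 1.91% were. Because the genes were chosen with earlier results of these data known, these shares describe the list and are not an independent test. On counts simulated gene by gene, without shifts of whole chromosome windows, 6.59% of edgeR's calls and 19.8% of DESeq2's were false. These rates may not hold for the libraries themselves.

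The groups did not overlap for 13 of the 37 genes (35.1%), against 23.9% of all genes. In 11 of them every ΔNSPs clone was below every Control line (29.7%, against 11.7% of all genes), and in 2 every clone was above (5.41%, against 12.2%). The fold change was below 0 for 22 of the 37 (59.5%), against 49.7% of all genes. The median log2 fold change of the 37 was -0.14, with a range of -0.97 to 0.77, against a median of 0.00 over all genes tested.

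**Figure D1:**
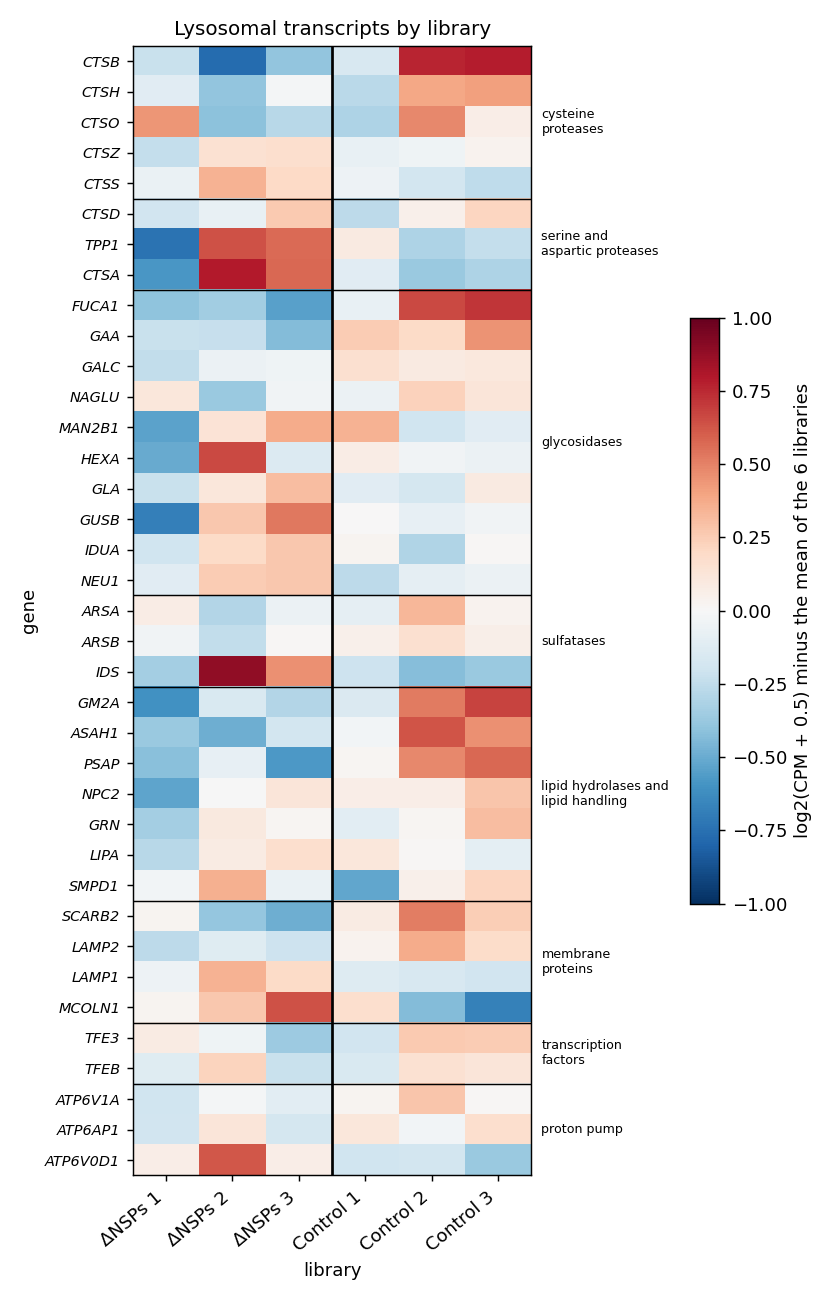
Log2 of CPM plus 0.5 in each library, minus the mean over the 6 libraries, for the 37 lysosomal genes with a row, grouped by role, with ΔNSPs clones 1 to 3 in the left columns and Control lines 1 to 3 in the right ones. In all clones FUCA1, ASAH1, PSAP and GM2A lie below every Control line, whereas CTSA, TPP1 and IDS are high in clones 2 and 3 but not in clone 1.

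Among the cysteine proteases, which cut proteins in the lysosome through an active-site cysteine, cathepsin B was lower and cathepsin S higher in ΔNSPs. CTSB (ENSG00000164733, chromosome 8, 11842524 to 11869448, minus strand, GRCh38) encodes an abundant endopeptidase and dipeptidase. It was at 218, 149 and 193 CPM in ΔNSPs clones 1, 2 and 3, against 228, 430.5 and 439 CPM in Control lines 1, 2 and 3. Every clone was below every Control line, but Control line 1 was closer to clone 1 than to the other Control lines. The means were 187 ± 35.1 CPM in ΔNSPs and 366 ± 119.6 CPM in Control (SD, n = 3 each), and the log2 fold change was -0.97 (SE 0.26, edgeR adjusted p = 0.176, DESeq2 adjusted p = 0.00656). This was the lowest fold change of the 37 genes over all libraries, while without clone 2 FUCA1 was lower, at -0.96 against -0.83 for CTSB. CTSB lies on chromosome 8, where clone 2 was low over many genes.

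CTSS (ENSG00000163131, chromosome 1, 150730196 to 150765957, minus strand), which encodes the protease that trims the invariant chain of MHC class II molecules, was at 65.1, 86.7 and 78.2 CPM in the ΔNSPs clones, against 65.5, 60.0 and 57.1 CPM in the Control lines. Clones 2 and 3 were above every Control line, and clone 1 was level with Control line 1. The log2 fold change was 0.33 (SE 0.13, edgeR adjusted p = 0.246). CTSH, an aminopeptidase, averaged 90.6 CPM in ΔNSPs and 118 CPM in Control, and CTSZ, a carboxypeptidase, 193 CPM in ΔNSPs and 185 CPM in Control. CTSO was the lowest of the class, at 3.20 CPM in ΔNSPs and 3.60 CPM in Control. None of these last 3 passed at an unadjusted p under 0.05.

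The serine carboxypeptidase CTSA and the tripeptidyl peptidase TPP1 differed more between clones than between the groups, and the aspartic protease CTSD was level. CTSA (ENSG00000064601, chromosome 20, 45890144 to 45898820, plus strand), which also shields the lysosomal galactosidase and neuraminidase from breakdown, was at 93.3, 242 and 208 CPM in ΔNSPs clones 1, 2 and 3, against 129, 108 and 113 CPM in the Control lines. TPP1 (ENSG00000166340, chromosome 11, 6612763 to 6619485, minus strand), whose loss causes a neuronal ceroid lipofuscinosis, was at 47.2, 123 and 118 CPM in the clones, against 84.2, 64.0 and 67.1 CPM in the Control lines. For both genes clone 1 was below every Control line, and clones 2 and 3 were above every Control line. Over all libraries the log2 fold change was 0.64 for CTSA (SE 0.30, edgeR adjusted p = 0.314) and 0.42 for TPP1 (SE 0.32, edgeR adjusted p = 0.518). CTSD (ENSG00000117984, chromosome 11, 1752752 to 1764573, minus strand), the main aspartic endopeptidase of lysosomes, was at 288, 314 and 395 CPM in the clones, against 275, 343 and 383 CPM in the Control lines, and its log2 fold change was -0.01 (SE 0.16).

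The glycosidases, which remove sugars one by one from glycans and glycolipids, included 2 of the lower genes and none of the higher ones. FUCA1 (ENSG00000179163, chromosome 1, 23845077 to 23868294, minus strand), the fucosidase lost in fucosidosis, was at 25.8, 26.9 and 23.4 CPM in ΔNSPs clones 1, 2 and 3, against 32.5, 54.5 and 56.7 CPM in Control lines 1, 2 and 3. GAA (ENSG00000171298, chromosome 17, 80101556 to 80119879, plus strand), the acid glucosidase that degrades glycogen and is lost in Pompe disease, was at 74.1, 73.6 and 64.1 CPM in the clones, against 103, 99.03 and 118 CPM in the Control lines. The clones lay close together for both genes and below every Control line, and only for FUCA1 was Control line 1 well below the other Control lines. FUCA1 averaged 25.4 ± 1.80 CPM in ΔNSPs and 47.9 ± 13.4 CPM in Control (SD, n = 3 each), and the log2 fold change was -0.92 (SE 0.21, edgeR adjusted p = 0.171, DESeq2 adjusted p = 0.00501). For GAA the means were 70.6 ± 5.64 CPM in ΔNSPs and 107 ± 10.2 CPM in Control (SD, n = 3 each), and the log2 fold change was -0.60 (SE 0.11, edgeR adjusted p = 0.160, DESeq2 adjusted p = 0.00322).

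GUSB (ENSG00000169919, chromosome 7, 65960684 to 65982314, minus strand), the glucuronidase that is often taken as a stable control gene, had the highest CPM of the glycosidases. It was at 118, 229 and 273 CPM in the ΔNSPs clones, against 189.5, 179 and 185 CPM in the Control lines. Clone 1 was the lowest of all libraries and clones 2 and 3 the highest, while the Control lines lay close together. The log2 fold change was 0.16 (SE 0.26, edgeR adjusted p = 0.774). The 7 other glycosidases did not pass at an unadjusted p under 0.05. Of these, the sialidase NEU1 averaged 71.2 CPM in ΔNSPs and 58.5 CPM in Control (log2 fold change 0.28, edgeR adjusted p = 0.301). The galactocerebrosidase GALC averaged 11.5 CPM in ΔNSPs and 13.5 CPM in Control, with every clone below every Control line. The mannosidase MAN2B1 averaged 147 CPM in ΔNSPs and 146 CPM in Control, the hexosaminidase subunit HEXA 60.2 CPM in ΔNSPs and 56.3 CPM in Control, and the galactosidase GLA 28.0 CPM in ΔNSPs and 25.4 CPM in Control. Of the 2 enzymes that act on glycosaminoglycans, IDUA averaged 24.8 CPM in ΔNSPs and 21.7 CPM in Control, and NAGLU averaged 20.9 CPM in ΔNSPs and 23.8 CPM in Control.

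Sulfatases take sulfate groups off glycosaminoglycans and sulfatides. IDS (ENSG00000010404, chromosome X, 149476990 to 149521096, minus strand), the iduronate sulfatase lost in Hunter syndrome, was at 15.5, 37.1 and 27.4 CPM in ΔNSPs clones 1, 2 and 3, against 17.1, 14.6 and 15.2 CPM in Control lines 1, 2 and 3. Clones 2 and 3 were above every Control line and clone 1 lay within the Control range. Its log2 fold change, 0.77 (SE 0.28, edgeR adjusted p = 0.234), was the highest of the 37 over all libraries. Without clone 2 it was 0.46, below MCOLN1 at 0.67, and without Control line 1 it was 0.84, below MCOLN1 at 0.93. ARSB (ENSG00000113273, chromosome 5, 78777209 to 78986087, minus strand), which acts on dermatan sulfate, was at 37.8, 32.5 and 39.1 CPM in the clones, against 40.2, 43.3 and 40.3 CPM in the Control lines. The groups did not overlap, yet the log2 fold change was small, at -0.18 (SE 0.11, edgeR adjusted p = 0.434). ARSA, the sulfatide sulfatase, averaged 9.42 CPM in ΔNSPs and 10.8 CPM in Control.

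Lipid hydrolases and their helper proteins held 3 of the 8 lower genes and none of the higher ones, and 6 of the 7 had a fold change below 0. ASAH1 (ENSG00000104763, chromosome 8, 18055992 to 18084998, minus strand), the acid ceramidase, was at 147, 136 and 168 CPM in ΔNSPs clones 1, 2 and 3, against 188, 296 and 262 CPM in Control lines 1, 2 and 3. Like CTSB it lies on chromosome 8, and clone 2 was its lowest library. PSAP (ENSG00000197746, chromosome 10, 71816298 to 71851375, minus strand), the precursor of the saposins that present sphingolipids to their hydrolases, was at 271, 341 and 243 CPM in the clones, against 367, 506 and 538 CPM in the Control lines. GM2A (ENSG00000196743, chromosome 5, 151212150 to 151270440, plus strand), the activator that lifts ganglioside GM2 out of the membrane for hexosaminidase, was at 62.9, 86.6 and 78.3 CPM in the clones, against 87.1, 138 and 154 CPM in the Control lines. Every clone was below every Control line for all 3 genes, by a narrow margin for GM2A, whose highest clone lay next to Control line 1.

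ASAH1 averaged 151 ± 16.5 CPM in ΔNSPs and 249 ± 55.5 CPM in Control (SD, n = 3 each), and the log2 fold change was -0.72 (SE 0.17, edgeR adjusted p = 0.171, DESeq2 adjusted p = 0.00788). PSAP averaged 285 ± 50.6 CPM in ΔNSPs and 470.3 ± 91.1 CPM in Control (SD, n = 3 each), and the log2 fold change was -0.72 (SE 0.18, edgeR adjusted p = 0.171, DESeq2 adjusted p = 0.00897). The values for GM2A were 76.0 ± 11.99 CPM in ΔNSPs and 126 ± 34.9 CPM in Control (SD, n = 3 each), and the log2 fold change was -0.73 (SE 0.22, edgeR adjusted p = 0.183, DESeq2 adjusted p = 0.0292). The remaining lipid genes did not pass at an unadjusted p under 0.05. They were the sphingomyelinase SMPD1 at 16.2 CPM in ΔNSPs and 14.5 CPM in Control, the acid lipase LIPA at 75.3 CPM in ΔNSPs and 75.8 CPM in Control, the cholesterol carrier NPC2 at 56.6 CPM in ΔNSPs and 67.5 CPM in Control, and GRN, the precursor of the granulins, at 151 CPM in ΔNSPs and 167 CPM in Control.

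**Figure D2:**
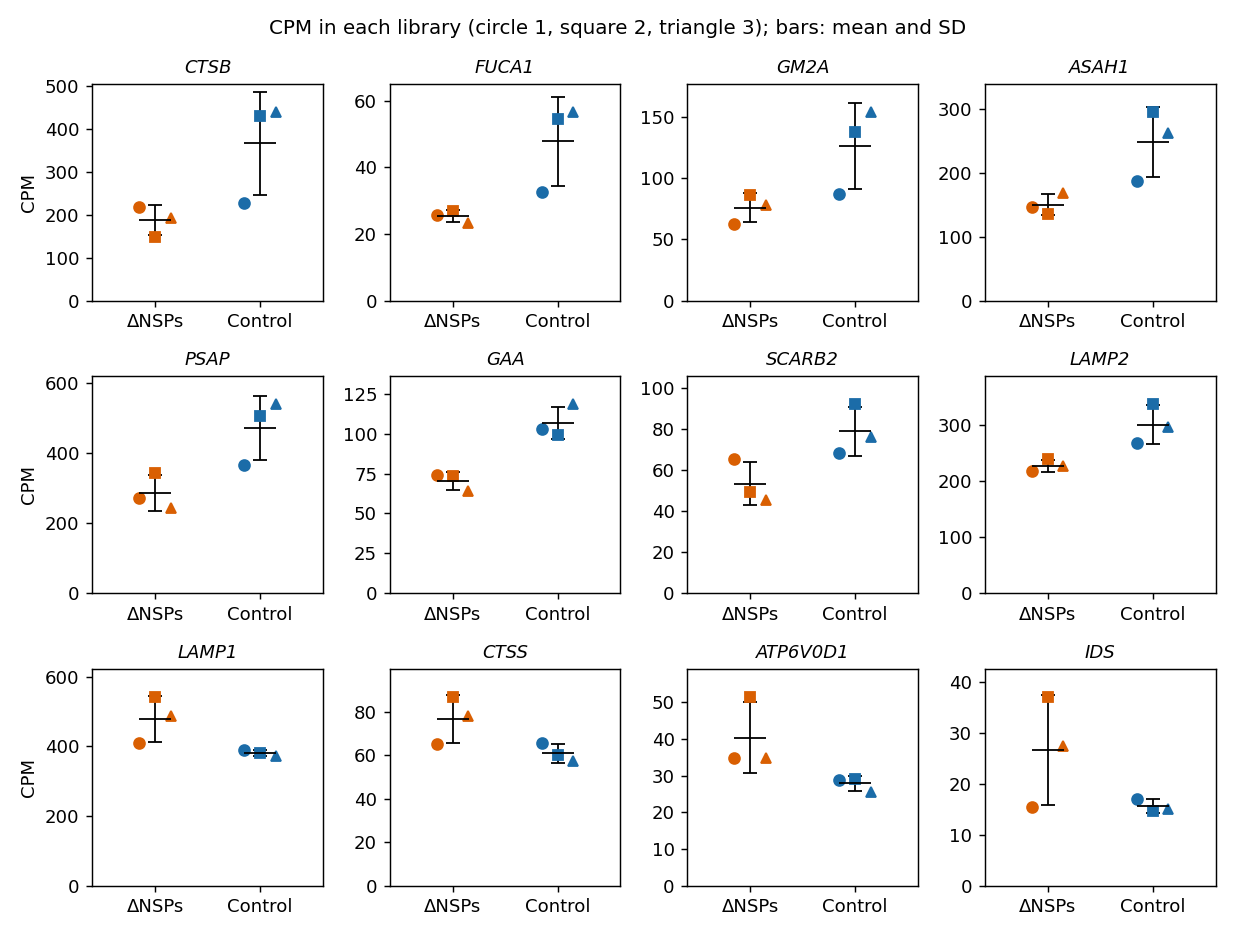
CPM of each library for the 12 lysosomal genes with an unadjusted edgeR p under 0.05, with ΔNSPs clones on the left and Control lines on the right of each panel, points for libraries and bars for the mean and SD of 3. In the 8 panels of lower genes every clone sits below every Control line, while for CTSS and IDS clone 1 sits among the Control lines.

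The membrane glycoproteins LAMP1 and LAMP2, close relatives that coat the inner face of the lysosomal membrane, lay on opposite sides of Control. LAMP1 (ENSG00000185896, chromosome 13, 113297241 to 113323672, plus strand) was at 410.3, 541 and 486 CPM in ΔNSPs clones 1, 2 and 3, against 389.6, 381 and 373 CPM in Control lines 1, 2 and 3. LAMP2 (ENSG00000005893, chromosome X, 120427827 to 120469365, minus strand), which is also a receptor of chaperone-mediated autophagy, was at 218, 239.7 and 227 CPM in the clones, against 268, 338 and 297 CPM in the Control lines. The groups did not overlap for either gene, with all clones high for LAMP1 and all clones low for LAMP2. The log2 fold change was 0.33 for LAMP1 (SE 0.12, edgeR adjusted p = 0.222) and -0.40 for LAMP2 (SE 0.11, edgeR adjusted p = 0.178).

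SCARB2 (ENSG00000138760, chromosome 4, 76158733 to 76234536, minus strand), the membrane receptor that carries glucocerebrosidase to lysosomes, was at 65.4, 49.0 and 45.5 CPM in ΔNSPs clones 1, 2 and 3, against 68.0, 91.9 and 76.2 CPM in the Control lines. All clones were below all Control lines, clone 1 only just below Control line 1. The log2 fold change was -0.56 (SE 0.17, edgeR adjusted p = 0.187). MCOLN1 (ENSG00000090674, chromosome 19, 7522626 to 7534009, plus strand), the calcium channel of the lysosomal membrane, was at 8.77, 10.4 and 13.6 CPM in the clones, against 9.70, 6.23 and 5.20 CPM in the Control lines. Control line 1 was high and overlapped the clones, and the log2 fold change of 0.64 (SE 0.28) had an edgeR adjusted p of 0.289.

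TFEB and TFE3, the activators of the lysosomal program, showed no difference beyond the spread between libraries. TFEB (ENSG00000112561, chromosome 6, 41683978 to 41736259, minus strand) was at 17.3, 21.9 and 16.0 CPM in ΔNSPs clones 1, 2 and 3, against 16.9, 20.9 and 20.4 CPM in Control lines 1, 2 and 3. TFE3 (ENSG00000068323, chromosome X, 49028726 to 49043486, minus strand) was at 27.9, 25.6 and 20.4 CPM in the clones, against 23.1, 31.7 and 31.4 CPM in the Control lines. The groups overlapped for both, with log2 fold changes of -0.07 (SE 0.17, edgeR adjusted p = 0.843) for TFEB and -0.22 (SE 0.17, edgeR adjusted p = 0.528) for TFE3. Both factors are controlled mainly by where they sit in the cell, which transcript counts do not measure.

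The proton pump showed 1 subunit above Control and 2 genes slightly below it. ATP6V0D1 (ENSG00000159720, chromosome 16, 67438014 to 67481237, minus strand), a subunit of the membrane sector that couples it to the catalytic sector, was at 34.9, 51.5 and 34.9 CPM in ΔNSPs clones 1, 2 and 3, against 28.9, 29.2 and 25.6 CPM in Control lines 1, 2 and 3. Every clone was above every Control line, and clone 2 was the highest library. The log2 fold change was 0.53 (SE 0.17, edgeR adjusted p = 0.200). ATP6AP1 (ENSG00000071553, chromosome X, 154428632 to 154436516, plus strand), an accessory subunit needed for assembly, was at 82.1, 102 and 83.0 CPM in the clones, against 102, 92.1 and 106 CPM in the Control lines, and the groups overlapped. ATP6V1A, the catalytic subunit that hydrolyses ATP, averaged 81.0 CPM in ΔNSPs and 94.5 CPM in Control, with every clone below every Control line but an edgeR adjusted p of 0.339.

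**Figure D3:**
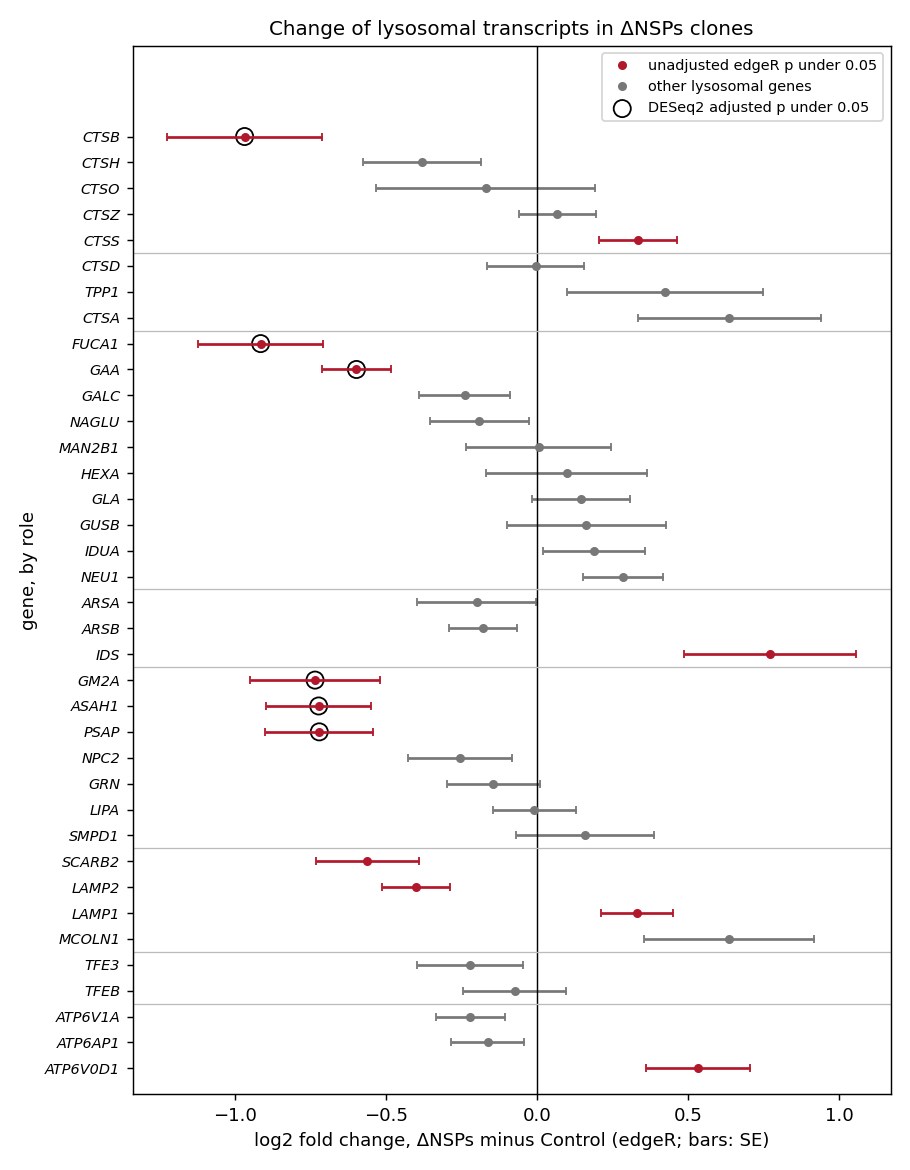
Log2 fold change (ΔNSPs minus Control, edgeR) with its SE for the 37 lysosomal genes by role, in red where the unadjusted edgeR p was under 0.05 and ringed where the DESeq2 adjusted p was under 0.05. The 6 ringed genes are all lower in ΔNSPs, between -0.60 for GAA and -0.97 for CTSB, and the 4 red genes on the right reach 0.77 for IDS.

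Per kilobase of merged exon length, a rough scale for setting levels of different genes side by side, the 37 genes spanned a 101-fold range. That length joins the exons of all annotated transcripts of a gene, for example 19341 bases for SCARB2 and 15378 bases for ASAH1. Genes with a long merged length may therefore rank too low, and the order and range depend on the annotation. PSAP led with 88.1 CPM per kb in ΔNSPs and 145 CPM per kb in Control, followed by CTSD at 106 CPM per kb in ΔNSPs and 107 CPM per kb in Control, and CTSZ at 94.9 CPM per kb in ΔNSPs and 90.6 CPM per kb in Control. LAMP1 came next, at 83.5 CPM per kb in ΔNSPs and 66.4 CPM per kb in Control. In the ΔNSPs clones CTSD and CTSZ thus stood above PSAP, which led in Control. The lowest levels were those of GALC, at 1.68 CPM per kb in ΔNSPs and 1.99 CPM per kb in Control, and CTSO, at 1.08 CPM per kb in ΔNSPs and 1.22 CPM per kb in Control.

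Single libraries weighed on these comparisons. Clone 1 was the lowest library for 15 of the 37 genes (40.5%, against 16.0% of all genes) and the highest for none (against 16.1% of all genes). The summed level of the 37 genes was 3192, 4039 and 3974 CPM in ΔNSPs clones 1, 2 and 3, against 3756, 4402 and 4488 CPM in Control lines 1, 2 and 3, so clone 1 was the lowest and Control line 1 the lowest of its group. CTSA, CTSZ, GLA, GUSB and TPP1 shared one pattern, with clone 1 below every Control line and clones 2 and 3 above every Control line (13.5% of the 37, against 3.60% of all genes). Control line 1 was the lowest Control library for 20 of the 37 genes (54.1%, against 36.7% of all genes), and for 7 of the 8 lower genes, all but GAA. The SD on the log2 scale was larger among clones than among Control lines for 23 of the 37 genes (62.2%, against 66.0% of all genes).

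Leaving out 1 library at a time changed which genes were called. Without clone 1, edgeR called 928 of 15050 genes at an adjusted p under 0.05 (6.17%) and 5 of the 37 lysosomal genes (13.5%). These were CTSA (adjusted p = 0.0133), IDS (adjusted p = 0.0238) and TPP1 (adjusted p = 0.0287), which were higher in edgeR on clones 2 and 3, and GAA (adjusted p = 0.0323) and SCARB2 (adjusted p = 0.0323), which were lower. Without Control line 1, edgeR called 0.131% of all genes and 1 of the 37, FUCA1 (adjusted p = 0.0487). None of the 37 was called without clone 2, clone 3, Control line 2 or Control line 3, where edgeR called 0.0133%, 0.00655%, 0% and 0% of all genes. All 8 lower genes kept an unadjusted edgeR p under 0.05 whichever library was left out, whereas none of the 4 higher genes did. These genes were picked by the same threshold on all libraries, most of which each of these fits reuses. The share of all genes that kept it in every fit was not computed, so the contrast describes these genes only. The split was narrow for some genes. The highest of these edgeR p was 0.0484 for SCARB2 and 0.0427 for GM2A, both lower. The higher gene ATP6V0D1 passed in 5 of the 6 fits, with a highest p of 0.0577. The number of higher genes at that threshold was 9 without clone 1 (24.3%, against 13.0% of all genes) and 5 without Control line 1 (13.5%, against 9.20%). It was 1 (2.70%) without clone 2, clone 3 or Control line 2, where 7.03%, 6.51% and 4.59% of all genes were higher, and 0 without Control line 3, where 4.93% were. The median log2 fold change of the 37 was -0.04 without clone 1 and -0.17 without Control line 1.

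Some of the genes lie in fixed chromosomal windows of 20 Mb whose median was high or low in single clones. A gene with a mean of 8 CPM or higher was itself counted in the median of its window. Over chromosome 8 as a whole (344 genes), the median log2 ratio to the Control mean was -0.03, -0.59 and 0.01 in ΔNSPs clones 1, 2 and 3, and between -0.002 and 0.024 in the Control lines. In the window of 20 Mb that holds CTSB and ASAH1 (26 genes, these included) the median was -0.05, -0.70 and -0.03 in clones 1, 2 and 3. Clone 2 was thus low over the region, and clones 1 and 3 were near Control there. Both genes were below every Control line in clones 1 and 3 too. For CTSB the gap was narrow, with clone 1 at 218 CPM and Control line 1 at 228 CPM. The part of the region in these changes was not tested. When the window medians were taken out as offsets, the log2 fold change of CTSB was -0.72 in place of -0.97, and that of ASAH1 was -0.46 in place of -0.72, both with an unadjusted edgeR p under 0.05 as before.

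The window that holds CTSA and CTSZ on chromosome 20 (79 genes) had medians of -0.04, 0.57 and 0.59 in clones 1, 2 and 3. With it as an offset, the log2 fold change of CTSA was 0.19 in place of 0.64, and that of CTSZ was -0.32 in place of 0.07, a change of sign. CTSZ and ATP6V1A then had an unadjusted edgeR p under 0.05, so that 10 of the 37 were lower at that threshold with offsets (against 9.60% of all genes). For MAN2B1 and MCOLN1 on chromosome 19 (370 genes, medians 0.03, 0.28 and 0.48 in clones 1, 2 and 3), the value for MAN2B1 was -0.28 in place of 0.01, and for MCOLN1 0.37 in place of 0.64. SCARB2 on chromosome 4 was at -0.41 in place of -0.56. HEXA on chromosome 15 was at -0.10 in place of 0.10. GAA was at -0.66 in place of -0.60, and the offsets moved FUCA1, PSAP, GM2A, LAMP2, LAMP1, CTSS, IDS and ATP6V0D1 by less than they moved GAA. Why whole windows were high or low in single clones was not tested.

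**Figure D4:**
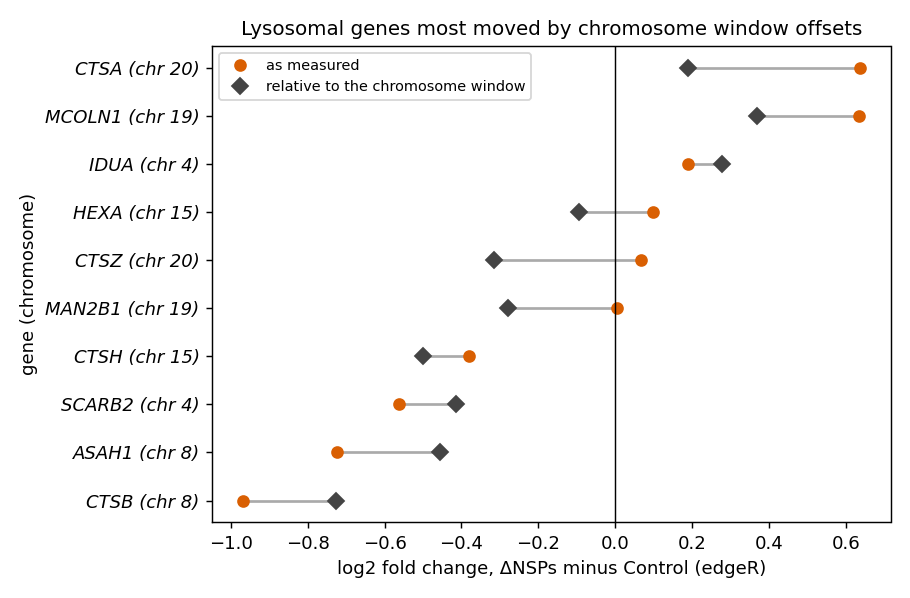
Log2 fold change (ΔNSPs minus Control, edgeR) of the 10 lysosomal genes most moved by taking out the median of their 20 Mb chromosome window, with circles for the value as measured and diamonds for the value relative to the window. CTSB and ASAH1 on chromosome 8 stay below 0, at -0.72 and -0.46, and CTSA on chromosome 20 comes close to 0, at 0.19.

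The genes around this core were 92 further genes of lysosomal function, also chosen with earlier results of these data known. The 85 of them that were tested had a median log2 fold change of -0.04. None passed edgeR at an adjusted p under 0.05, and at an unadjusted p under 0.05, 6 were higher and 14 lower in ΔNSPs (7.06% and 16.5% of the 85, against 9.23% and 8.60% of all genes). DESeq2 called 1 higher and 5 lower of the 83 with an adjusted p (1.20% and 6.02%, against 1.91% and 2.07% of all genes). CTSC, the peptidase that activates the neutrophil serine proteases, had the highest CPM of the other proteases, at 312, 331 and 315 CPM in ΔNSPs clones 1, 2 and 3, against 253, 278 and 254 CPM in Control lines 1, 2 and 3, with 0.29 as its log2 fold change (SE 0.09, edgeR adjusted p = 0.200). CST7, a cystatin that inhibits CTSC, was at 496, 591 and 558 CPM in the clones, against 711, 571 and 686 CPM in the Control lines. Every clone was above every Control line for the protease, and the groups overlapped for its inhibitor.

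Among the other hydrolases, the galactosidase GLB1, which splits galactose from ganglioside GM1, was at 107, 147 and 125 CPM in ΔNSPs clones 1, 2 and 3, against 159, 221 and 222 CPM in Control lines 1, 2 and 3 (log2 fold change -0.67, SE 0.17, DESeq2 adjusted p = 0.0128). MANBA, a mannosidase, was at 26.7, 27.6 and 29.5 CPM in the clones, against 34.2, 43.8 and 51.7 CPM in the Control lines (log2 fold change -0.63, SE 0.16, DESeq2 adjusted p = 0.0275). RNASET2, the acid ribonuclease, was at 70.0, 70.8 and 77.8 CPM in the clones, against 104, 110.0 and 125 CPM in the Control lines (log2 fold change -0.63, SE 0.11, DESeq2 adjusted p = 0.000866). All 3 were lower in DESeq2 and none passed edgeR, with adjusted p of 0.171 for GLB1, 0.171 for MANBA and 0.160 for RNASET2.

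In the sorting step, GNPTAB, which encodes the transferase that makes the mannose 6-phosphate tag, was at 50.5, 49.8 and 44.6 CPM in ΔNSPs clones 1, 2 and 3, against 68.6, 74.1 and 69.5 CPM in Control lines 1, 2 and 3 (log2 fold change -0.55, SE 0.10, DESeq2 adjusted p = 0.00475). SORL1, a sorting receptor, was at 185, 131 and 162 CPM in the clones, against 217, 305 and 314 CPM in the Control lines (log2 fold change -0.80, SE 0.18, DESeq2 adjusted p = 0.00322). ATP6V0B, a proteolipid of the pump's membrane sector, was at 241, 298 and 258 CPM in the clones, against 183, 169 and 184 CPM in the Control lines (log2 fold change 0.57, SE 0.11, DESeq2 adjusted p = 0.00316), with every clone above every Control line. Of the 12 other pump subunits tested, 6 had a fold change above 0 and 6 below it, with a median of 0.02, and ATP6V0B alone passed in DESeq2. LAPTM5, the most abundant of the other membrane proteins, averaged 689 CPM in ΔNSPs and 694 CPM in Control, and MTOR averaged 124 CPM in ΔNSPs and 105 CPM in Control. Without clone 1, edgeR called 6 of the 85 (7.06%) at an adjusted p under 0.05 (RNASET2, TPCN1, ATP6V0B, GNPTAB, SORL1 and RRAGD).

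Overlapping genes limit some of these counts. On the same strand, AC068580.4 covers 41.7% of the exon length of CTSD, AC244197.3 covers 16.5% of IDS, AC010422.3 and AC010422.5 cover 13.1% and 8.09% of MAN2B1, AC067852.1 covers 12.6% of NAGLU, and AC091564.7 covers 11.6% of TPP1. Their reads cannot be told apart whatever the strand setting, which also touches the level of CTSD per kilobase. A further limit applies to antisense genes, since the strand setting of the counting is not given in the sources used here. An antisense gene, AC068580.3, covers 15.8% of the exon length of CTSD and was itself at 167 to 245 CPM over the libraries, and AL008726.1 overlaps 7.34% of CTSA and was at 20.7, 57.4 and 47.2 CPM in ΔNSPs clones 1, 2 and 3, against 24.3, 25.9 and 24.5 CPM in Control lines 1, 2 and 3, the pattern of CTSA. PLTP, also antisense to CTSA, covers 3.42% of its exon length and shows that pattern too. It was at 38.1, 112 and 84.1 CPM in the clones, against 61.0, 45.6 and 53.3 CPM in the Control lines. HEXA overlaps the antisense gene AC009690.2 over 10.1% of its exon length. AC009690.2 was at 70.4, 153 and 101 CPM in the clones, against 97.0, 90.3 and 103 CPM in the Control lines. It was above HEXA in every library, and both were lowest in clone 1 and highest in clone 2. GUSB and IDS have near-identical pseudogene copies, so reads may have been split or dropped for both. Without strand, reads of a gene and of its antisense partner cannot be told apart.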

How the data were processed

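RNA from 6 libraries of U937 cells was sequenced by the authors, and the deposited table holds their raw whole-number counts for each Ensembl gene. The tools listed per the submitters' processing notes are HISAT2 2.0.0, HTSeq 0.11.1, SAMtools 1.5.9 and FastQC, with the GRCh38.p12 build. Neither the strand setting nor the annotation release is given in the sources used here. The lowest row total over all libraries was 10 counts. Symbols and positions came from GENCODE 29 by Ensembl identifier (18771 of 18798 rows matched), and promoter windows from RefSeq on GRCh38.p14.

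The members and lists were chosen with earlier results of these data known. Groups came from the sample titles. Counts were tested with edgeR 4.0.16 (R 4.3.3), with TMM normalization, filterByExpr by group, quasi-likelihood fits and Benjamini-Hochberg adjustment over 14797 genes; tests were two-sided, with a threshold of 0.05 on the adjusted p. CPM were computed here from the deposited counts and the TMM-scaled library totals, with errors as SD over the 3 libraries of a group. Log2 fold changes are given as ΔNSPs minus Control, with an SE taken from the ratio of the fold change to the square root of the F statistic. The floor of 3 counts covers counting error alone, because PCR copies cannot be told from separate molecules. No 2 libraries of a group agreed within sampling noise (chi-square per degree of freedom at least 7.64).

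Alternatives were DESeq2 1.42.0 (Wald test), limma 3.58.1 (voom with quality weights), other size factors and filters, a replicate block, offsets by the median of 20 Mb chromosome windows (over 20 or more genes whose mean was 8 CPM or higher, log2 with 0.5 CPM added), and leaving out each library. On counts simulated for the 14797 genes of this comparison, edgeR recovered 74% of genes changed 2-fold and 96% of those changed 4-fold. DESeq2 recovered 83% and 99%. The counts were drawn independently for each gene, with changes only in genes with higher counts, and held no shifts of whole chromosome windows. These shares may therefore not hold for the libraries themselves, where ELANE did not pass edgeR at a log2 fold change of -5.56.

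Values in every library are given for members with an unadjusted edgeR p or a DESeq2 adjusted p under 0.05, for the member with the highest mean CPM in each role, for members whose highest and lowest library differed at least 2.5-fold, and for TFEB, TFE3, CTSB and ASAH1. This gave 21 members, and the 16 others are given by their means or range. Of the other lysosomal lists, genes past either adjusted threshold are named, and otherwise the gene with the highest mean CPM.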

Additional observations from a re-analysis of the deposited data

How the results depend on the processing

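Of 31 named genes, 27 kept the sign of their fold change under every alternative. Leaving out 1 library changed the sign for CTSD (log2 fold change -0.15 to 0.10), GUSB (-0.087 to 0.44), TFEB (-0.22 to 0.016) and LAPTM5 (-0.11 to 0.042). DESeq2 called 515 genes, 6 members and 6 other lysosomal genes in place of 3, 0 and 0 by edgeR. With limma voom, 0 members were called, and the count of higher members with an unadjusted p under 0.05 was 7 in place of 4 (18.9%, against 12.1% of all genes). Leaving out 1 library gave 0 to 928 genes called, 0 to 5 members called, 0 to 9 members higher and 8 to 9 lower at an unadjusted p under 0.05, a median log2 fold change of -0.17 to -0.04, and 0 to 7 other lysosomal genes called, the highest counts of calls being those without clone 1, where SORT1 also passed the filter on low counts. Whether the replicate numbers pair the libraries cannot be settled from deviations around means of 3 libraries. The correlation of same-numbered deviations was -0.432, -0.161 and -0.14, and 0 of the 3 clones correlated best with the Control line of its number. With a replicate block, edgeR called 0 genes and 0 members, the members at an unadjusted p under 0.05 were 1 higher (2.70%, against 5.78% of all genes) and 8 lower (21.6%, against 6.24%), and the median log2 fold change over all 37 members was -0.15. The causes of these shifts were not tested.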

Other observations

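Some further lysosomal genes, chosen after their values were seen, varied widely between the clones. CTSW, a cathepsin of cytotoxic lymphocytes, was at 2.42, 17.3 and 0.926 CPM in ΔNSPs clones 1, 2 and 3, against 6.38, 8.26 and 9.96 CPM in Control lines 1, 2 and 3. CST3, a secreted inhibitor of cysteine cathepsins, was at 132, 166 and 35.1 CPM in the clones, against 142, 106 and 129.8 CPM in the Control lines, so that clone 3 stood apart. Neither gene passed edgeR, with adjusted p of 0.901 for CTSW and 0.864 for CST3.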
